A study of Homo sapiens with 22 samples.

Results

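Here 2 single-cell clones that had been given SETD2 back, Rescue1 and Rescue2, were set against KO2, the SETD2 knockout clone from which they were derived. The comparison holds 6 of the 22 RNA-seq libraries of the series, with 2 libraries each of Rescue1, Rescue2 and KO2, chosen by their sample names. All 6 came from RPTEC, a line of human renal proximal tubule epithelial cells immortalized with hTERT. KO2 was 1 clone made with CRISPR/Cas9 and a guide in SETD2 exon 3, and its libraries were labelled untreated and grown in 2% serum. The rescue clones carried in addition a lentivirus for full-length human SETD2 with a FLAG tag, were selected with blasticidin, were picked as single colonies, and were grown in 10% serum. The restored gene, the serum, the lentivirus with its selection and the second round of cloning all separate the groups in the same direction, so their parts in any difference cannot be told apart in these 6 libraries. For the serum, WT_eGFP, wild-type RPTEC with a lentivirus for eGFP in 10% serum, was set beside WT, the untransduced wild-type line in 2% serum. That pair has the same serum step but also a transduction with puromycin selection, so it is not a serum effect alone. Where the serum step or serum difference of wild-type cells is named below, the whole difference of that pair is meant. For a rescue at the lower serum, 2 libraries labelled KO2_Rescue, by name the KO2 clone with SETD2 restored, in 2% serum were used.

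SETD2 is the methyltransferase that trimethylates histone H3 at lysine 36, a mark laid over the bodies of transcribed genes by the enzyme as it travels with elongating RNA polymerase II. The mark is read by proteins that act in splicing, DNA methylation, DNA repair and the silencing of cryptic promoters. SETD2 lies on the short arm of chromosome 3 and is often inactivated in clear cell renal cell carcinoma, a tumour thought to arise from the proximal tubule.

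The knockout guide is shown with its surroundings because it sets the genotype that all 6 libraries share. Its target lies at chr3:47122997-47123019 (GRCh38, plus strand; SETD2 is on the minus strand), inside coding exon 3 of the gene. Below, the 20 bases of the guide and the CGG PAM are in capitals.
SETD2 guide site: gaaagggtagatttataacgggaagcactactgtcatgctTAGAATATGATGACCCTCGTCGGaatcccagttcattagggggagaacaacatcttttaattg

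SETD2 (ENSG00000181555, chr3:47016428-47164113) was the most direct check of the labels. Its normalized count, read counts scaled between libraries by the authors and converted back from their log scale, was 10240.3 and 10369 in Rescue1, 10445 and 9764 in Rescue2, and 1049.8 and 1052 in KO2. The rescue libraries stood apart from KO2 and differed from one another by less than 10%: 9.70-fold higher (log2 change 3.28 ± 0.06 (SE), adjusted p = 3.12e-14). They were also above WT, where SETD2 counted 1852 and 2061, and WT_eGFP, where it counted 3128 and 2947. The libraries labelled KO2_Rescue held 834 and 819.6, no higher than KO2, so their SETD2 level went against the label.

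Of 14585 genes tested, 2551 (17.5%) were called different between the 4 rescue libraries and KO2, where a call needed an adjusted p under 0.05 (limma, Benjamini-Hochberg) and an absolute log2 change over 1. Of these, 1143 (7.84%) were higher in rescue and 1408 (9.65%) were lower. Changes over 8-fold were found for 184 genes upwards and 416 downwards. The split depended on scaling: with every library brought to the same total, 1856 genes were called higher and 1035 lower, and the median of all genes moved from -0.03 to 0.26 on the log2 scale. FN1 alone, the gene for fibronectin, took 13.2 and 13.4% of the normalized total in the KO2 libraries but 4.33 to 5.24% in the rescue libraries. Taken singly, Rescue1 against KO2 gave 2351 calls (16.1%) and Rescue2 against KO2 gave 2226 (15.3%), and both used the same KO2 libraries. KO2 itself differed from WT at the same 2% serum in 2378 genes (16.3%). The rescue clones differed from WT_eGFP, at the same 10% serum, in 1915 genes (13.1%). The names KO1 and KO2 are swapped between sources of the study, so the GEO labels were followed here, and with the clone labelled KO1 in place of KO2 the count was 3904. Depth, estimated from the smallest steps of the values in units of 1000000 reads, was 7.57 to 13.9 per library among the 6. Nothing in the labels says that the 2 libraries of a group came from separate cultures, so the p-values measure only the spread between libraries.

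The steepest falls brought genes that were active in KO2 down to a few counts or none. SV2B, a synaptic vesicle glycoprotein (chr15:91099950-91302565), counted 3.74 and 0.915 in Rescue1, 2.92 and 2.66 in Rescue2, and 2603 and 2389 in KO2, a 739-fold difference on the log2(count + 1) scale used for all fold changes (log2 change -9.53 ± 0.70 (SE), adjusted p = 8.58e-08). LRRC15, a leucine-rich repeat membrane protein, counted 22 and 14.4 in Rescue1, 3.27 and 2.37 in Rescue2, and 4019.5 and 3681 in KO2 (log2 change -8.83 ± 0.51 (SE), adjusted p = 5.56e-09). IL24, a cytokine of the interleukin-10 family, counted 5.11 and 8.63 in Rescue1, 2.47 and 0 in Rescue2, and 1829 and 1339.8 in KO2 (log2 change -8.69 ± 0.51 (SE), adjusted p = 7.54e-09). Each of these had 1 or more rescue libraries within 10 counts of 0, and WT held 3.39 and 0 for SV2B, 6.01 and 0 for LRRC15 and 7.29 and 4.64 for IL24. AQP9, a channel for water and glycerol, fell likewise from 1004 and 925 to between 0 and 3.03 (log2 change -9.19, adjusted p = 1.11e-06).

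For 10 genes every rescue library was at or under 3 reads while both KO2 libraries held at least 100 normalized counts. The potassium channel gene KCND3 was at 0 in all 4 rescue libraries and at 522 and 507 in KO2, so it was at least 152-fold lower, taking 3 reads per library as the floor (adjusted p = 1.62e-09). CH25H, which makes 25-hydroxycholesterol, counted 1.48 and 0 in Rescue1, 0 and 0.851 in Rescue2, and 659.7 and 521 in KO2, at least 174-fold lower (adjusted p = 6.19e-08). DAB1, the adaptor of reelin signalling, and DCLK3, a doublecortin-like kinase, were at 0 in the 4 rescue libraries against 317 and 308 and 193 and 202 in KO2, falls of at least 92.3-fold and at least 58.4-fold. RBP4, the carrier of retinol in blood, was at 0 against 188 and 161 (at least 51.4-fold). The other 5 were FCAMR, COL4A3, HHIPL1, ARMCX2 and ARMCX4, named after their values were seen. WT held 30 or more counts of COL4A3, HHIPL1, ARMCX2 and ARMCX4 in both libraries and under 4 of the other 6, so the silent state in rescue matched WT for some of the 10 and not for others. OR12D2, an olfactory receptor gene of the MHC region, counted 4.69 and 1.17 in Rescue1, 9.41 and 5.17 in Rescue2, and 938 and 937 in KO2 (log2 change -7.47, adjusted p = 1.54e-08). NID2, a basement membrane nidogen, counted 0 and 2.01 in Rescue1, 7.95 and 0.438 in Rescue2, and 479 and 389.6 in KO2 (log2 change -7.44, adjusted p = 1.96e-07).

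**Figure D1:**
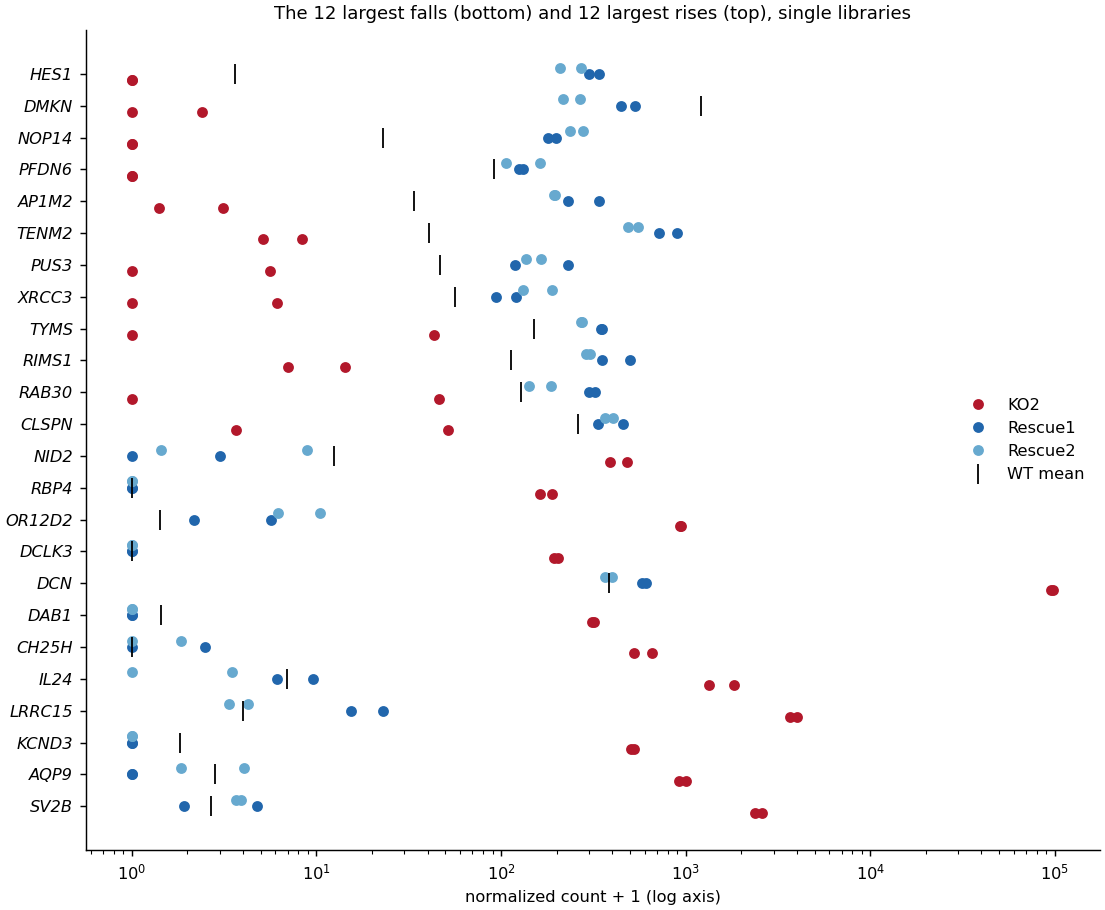
Normalized count + 1 (log axis) of the 12 protein-coding genes that fell most and the 12 that rose most, among called genes with 100 or more counts in the higher group; points are single libraries and the black tick is the WT mean. The KO2 points lie far to the right for the falls, such as SV2B at 2603 and 2389, and at or near 0 for most of the rises.

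The largest rises were smaller and rested on lower counts. HES1, the Notch-responsive repressor, was at 0 in both KO2 libraries and at 337 and 299.8 in Rescue1 and 270.1 and 208 in Rescue2, at least 82-fold higher (adjusted p = 2.85e-09). HES1 also rose with the serum step in wild-type cells, from 2.63 and 2.63 in WT to 1134 and 1060.3 in WT_eGFP, and with that difference subtracted its change was -0.13 (adjusted p = 0.91), a fitted value that rests on 2 groups near 0. DMKN, the secreted epithelial protein dermokine, behaved otherwise: it counted 529.5 and 444 in Rescue1, 215 and 266 in Rescue2, and 0 and 1.39 in KO2, and WT already held 1174 and 1248 in the lower serum (at least 107-fold, adjusted p = 1.27e-08). TENM2, a teneurin adhesion receptor, counted 714 and 901 in Rescue1, 550.1 and 487 in Rescue2, and 4.17 and 7.33 in KO2 (log2 change 6.62 ± 0.79 (SE), adjusted p = 1.24e-05). AP1M2, the epithelial clathrin adaptor subunit, counted 337 and 229 in Rescue1, 195 and 192 in Rescue2, and 0.408 and 2.13 in KO2, so it rose at least 70.1-fold (adjusted p = 6.19e-08).

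RIMS1, an organizer of the presynaptic active zone, rose from 13.3 and 6 to between 289 and 499.7 (log2 change 5.14 ± 0.27 (SE), adjusted p = 2.28e-09). Several other genes of this set had uneven or patchy values. XRCC3, a factor of homologous recombination, counted 119 and 93.5 in Rescue1, 188 and 131 in Rescue2, and 5.11 and 0 in KO2 (log2 change 5.72, adjusted p = 1.01e-05). PUS3, a pseudouridine synthase, and RAB30, a Golgi GTPase, were each at 0 in 1 KO2 library and at 4.61 and 45 in the other, with log2 changes of 6.05 and 5.05. That of RAB30 was called at 7.81 when KO2 replicate 1 was left out and at 2.29 when replicate 2 was. NOP14, a factor of ribosomal RNA processing, was at 0 in both KO2 libraries and also at 0 in 1 WT library (at least 65.3-fold higher, adjusted p = 0.0029). PFDN6, a prefoldin subunit in the MHC region, was at 0 in KO2 and in WT_eGFP but between 105 and 162 in rescue (at least 38.4-fold higher, adjusted p = 0.00301). OR12D2 and PFDN6 lie in a region with alternative haplotype copies in the reference, so the counting of their reads is uncertain.

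Most of the cell division genes measured were higher in rescue. Of 38 tested genes of mitosis and G2/M, 30 were called higher and 0 lower, with a median log2 change of 2.19, against 17.5% of all genes called and a median of -0.03. Of 35 tested genes of DNA replication and S phase, 22 were called higher and 0 lower, with a median of 2.07, or 1.79 with 2 members at the floor in 1 group set to their bound. CENPE, the kinetochore motor that carries chromosomes to the spindle equator, counted 897 and 1104 in Rescue1, 1239 and 995 in Rescue2, and 52 and 85.6 in KO2 (log2 change 3.96 ± 0.20 (SE), adjusted p = 1.22e-09). CCNE2, the cyclin E2 of S phase entry, counted 179.6 and 173 in Rescue1, 245 and 217 in Rescue2, and 7.59 and 8.25 in KO2 (log2 change 4.51 ± 0.31 (SE), adjusted p = 3.92e-08). UHRF1, which brings DNMT1 to replicated DNA, counted 1213 and 604 in Rescue1, 627 and 459 in Rescue2, and 77.3 and 13.6 in KO2 (log2 change 4.33 ± 0.71 (SE), adjusted p = 0.000222). In each of these the lowest rescue library lay more than 5 times above the highest KO2 library. CLSPN, the claspin of the replication checkpoint, counted 335 and 456 in Rescue1, 403 and 366 in Rescue2, and 2.66 and 50.7 in KO2 (log2 change 4.82, adjusted p = 0.00119). TYMS, the thymidylate synthase, counted 350.4 and 348 in Rescue1, 270.1 and 275 in Rescue2, and 42.3 and 0 in KO2 (log2 change 5.56, adjusted p = 0.00254), and without KO2 replicate 2 its change was 2.84 with an adjusted p of 0.088. CLSPN kept its call without KO2 replicate 1, at a log2 change of 2.91. TTK, a spindle checkpoint kinase, was at 15.7 and 0 in KO2 and 27.6 to 63.9 in rescue (log2 change 3.58, adjusted p = 0.0101), and its call was lost without KO2 replicate 2 (1.54, adjusted p = 0.278).

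Other well counted members were higher too. CDK1, the kinase of mitotic entry, counted 1534 and 1489.8 in Rescue1, 1411 and 1380.3 in Rescue2, and 377 and 436 in KO2 (log2 change 1.84 ± 0.13 (SE), adjusted p = 7.7e-08). MKI67, the antigen Ki-67 of cycling cells, counted 3541 and 3237 in Rescue1, 3478 and 3175 in Rescue2, and 264 and 1105 in KO2 (log2 change 2.63 ± 0.45 (SE), adjusted p = 0.000349). The KO2 libraries were thus uneven for MKI67, and both were below every rescue library. Without KO2 replicate 1, the lower of the pair, its change was 1.60 and it was still called. Among inhibitors of the cycle, CDKN2A, which encodes p16INK4A and ARF, counted 66 and 74.7 in Rescue1, 82.7 and 73.2 in Rescue2, and 711 and 670.3 in KO2 (log2 change -3.21 ± 0.16 (SE), adjusted p = 8.74e-10), and CDKN2B, which encodes p15INK4B, counted 114 and 78.7 in Rescue1, 65.2 and 74.1 in Rescue2, and 339 and 431 in KO2 (log2 change -2.22 ± 0.30 (SE), adjusted p = 4.02e-05). CDKN2A held 577 and 467 in WT and 476 and 444 in WT_eGFP, so the rescue clones lay below both wild-type groups. For CDKN2A the difference of KO2 from WT was not called (limma, log2 change 0.41, adjusted p = 0.106). CDKN2B held 172 and 199.6 in WT and 135 and 119 in WT_eGFP. Over the whole list of CDK inhibitors and p53 targets, 1 of 26 was called higher and 5 lower, 23.1% called against 17.5% of all genes. With the difference of WT_eGFP and WT subtracted 4 were higher and 5 lower. GDF15, a stress cytokine and p53 target, counted 1935 and 1778 in Rescue1, 1377 and 1456 in Rescue2, and 10408 and 7948 in KO2 (log2 change -2.49, adjusted p = 4.7e-10). The 1 higher member was LMNB1, lamin B1, at a log2 change of 1.71.

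Promoters of 3 of these genes are shown because they hold short motifs known from cell cycle promoters, the CHR element of G2/M genes and the E2F site of S phase genes. All are the 250 bases before the RefSeq start (GRCh38.p14), with CHR (TTTGAA) in capitals for PLK1 (chr16:23678639-23678888) and CCNB2 (chr15:59104896-59105145) and E2F (GCGGGAA on either strand) for UHRF1 (chr19:4909251-4909500), all on the plus strand. UHRF1 has 3 RefSeq starts in the table, and the windows of the other 2 hold no E2F string. PLK1 and CCNB2 were chosen after their values were seen.
PLK1: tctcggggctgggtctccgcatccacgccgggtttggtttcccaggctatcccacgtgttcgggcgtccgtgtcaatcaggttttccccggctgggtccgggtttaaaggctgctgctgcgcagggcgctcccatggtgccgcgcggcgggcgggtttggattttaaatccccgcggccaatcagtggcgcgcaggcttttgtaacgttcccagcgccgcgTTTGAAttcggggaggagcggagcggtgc
CCNB2: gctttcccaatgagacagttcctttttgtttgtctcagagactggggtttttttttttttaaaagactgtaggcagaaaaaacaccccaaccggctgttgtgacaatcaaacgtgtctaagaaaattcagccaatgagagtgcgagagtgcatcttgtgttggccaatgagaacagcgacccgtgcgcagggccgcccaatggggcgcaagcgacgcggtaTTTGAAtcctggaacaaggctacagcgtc
UHRF1: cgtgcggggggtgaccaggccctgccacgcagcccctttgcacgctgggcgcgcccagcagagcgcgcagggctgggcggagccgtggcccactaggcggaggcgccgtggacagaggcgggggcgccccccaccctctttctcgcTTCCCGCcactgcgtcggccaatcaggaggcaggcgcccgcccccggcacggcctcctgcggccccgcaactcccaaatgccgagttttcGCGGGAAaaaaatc

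PLK1, the polo kinase of mitosis, counted 127 and 159 in Rescue1, 113 and 136 in Rescue2, and 16.1 and 26.6 in KO2 (log2 change 2.62, adjusted p = 0.0012), and CCNB2, cyclin B2, counted 97 and 89.2 in Rescue1, 131 and 66.5 in Rescue2, and 18.3 and 24.7 in KO2 (log2 change 2.08, adjusted p = 0.0182). The call of CCNB2 was lost without Rescue2 replicate 1 (adjusted p = 0.0566) and without KO2 replicate 1 (0.128) or 2 (0.0618). In both windows the CHR begins 29 bases before the start. Searched on both strands, TTTGAA was present in the window of 18 of the 32 mitosis genes with a promoter entry, against 16.1% of all 27305 symbols in the table, and in 14 of the 24 called ones and 4 of the 8 not called. The E2F letters were present for 13 of 28 S phase genes against 6.66% of all symbols, in 8 of 18 called and 5 of 10 not called. A match of letters does not show binding.

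Chemokines went the other way. Of 12 tested, 8 were called lower and 0 higher (66.7% called against 17.5% of all genes), with a median log2 change of -2.57. CXCL12, the ligand of CXCR4, counted 333 and 324 in Rescue1, 551 and 633 in Rescue2, and 22547 and 20462 in KO2 (log2 change -5.61 ± 0.54 (SE), adjusted p = 1.31e-06), a 48.7-fold fall. CCL20, the ligand of CCR6, counted 88.2 and 89.7 in Rescue1, 13.9 and 18.1 in Rescue2, and 2757 and 2742 in KO2 (log2 change -6.14 ± 0.19 (SE), adjusted p = 7.45e-12). CXCL6, a neutrophil attractant of the CXCR1 and CXCR2 group, counted 95.3 and 85.6 in Rescue1, 14.8 and 54.5 in Rescue2, and 918 and 689.7 in KO2 (log2 change -3.94 ± 0.45 (SE), adjusted p = 8.17e-06). KO2 stood above the rescue clones throughout, and the rescue levels of CXCL12 still exceeded WT in 2% serum, at 74.9 and 6.88. They lay under WT_eGFP in 10% serum, at 852 and 711, a difference that was not called (limma, log2 change -0.82, adjusted p = 0.287). CXCL14 was at 0 in the 4 rescue libraries against 28.2 and 63.4 in KO2 (at least 13.5-fold lower, adjusted p = 1.64e-06). CXCL8, interleukin-8, named after its values were seen, counted 537 and 522 in Rescue1, 204 and 222 in Rescue2, and 1133 and 976 in KO2 (log2 change -1.64, adjusted p = 2.87e-07).

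The promoters of CXCL8 (chr4:73740319-73740568) and CXCL6 (chr4:73836428-73836677), both on the plus strand, are shown because a κB letter string, GGAATTTCC, here in capitals, recurs at nearly the same place in this gene cluster on chromosome 4.
CXCL8: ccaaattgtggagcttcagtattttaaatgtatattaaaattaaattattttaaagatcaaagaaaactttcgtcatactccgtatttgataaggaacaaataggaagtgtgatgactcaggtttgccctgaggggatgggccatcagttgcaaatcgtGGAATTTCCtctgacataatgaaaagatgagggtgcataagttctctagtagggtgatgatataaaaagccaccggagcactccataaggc
CXCL6: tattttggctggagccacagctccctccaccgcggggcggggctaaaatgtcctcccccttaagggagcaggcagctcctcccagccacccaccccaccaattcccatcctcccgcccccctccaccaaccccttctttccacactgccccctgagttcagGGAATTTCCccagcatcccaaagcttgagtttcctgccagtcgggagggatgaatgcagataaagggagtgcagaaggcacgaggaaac

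Those letters begin 91 bases before the start of CXCL8 and 89 before that of CXCL6, and they were found on either strand in 5 of the 9 chemokines with an entry, against 0.502% of all symbols. The 5 were CXCL1, CXCL2, CXCL3, CXCL6 and CXCL8, of which CXCL2 was not called. They are neighbouring paralogs, so their promoters are not independent. CXCL12 and CCL20 do not hold this exact string in the window.

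Interleukins and their relatives were less uniform, with 2 of 20 called higher and 8 lower, 50% called against 17.5% of all genes. IL6 counted 1382 and 1287 in Rescue1, 642 and 887 in Rescue2, and 3037 and 2193 in KO2 (log2 change -1.36, adjusted p = 2.99e-05). IL1R1, the signalling receptor for interleukin-1, counted 30.9 and 31.9 in Rescue1, 105 and 61.6 in Rescue2, and 944 and 998 in KO2 (log2 change -4.24, adjusted p = 1.47e-05). CSF3, the granulocyte colony stimulating factor, was at or under 1.39 in the 4 rescue libraries against 153 and 86.1 (at least 35.3-fold lower, adjusted p = 1.56e-07), and IL33 was at 0 against 21.1 and 17.6 (at least 5.70-fold lower, adjusted p = 0.000344). The 2 higher members were LIF and IL18, at log2 changes of 3.54 and 1.38. IL7 overlapped, at 0 and 15.4 in Rescue1, 9.97 and 25.7 in Rescue2, and 19 and 10.6 in KO2 (adjusted p = 0.574). Regulators and targets of NF-κB gave 0 higher and 4 lower of 17, 23.5% called against 17.5% of all genes. That count moved when KO2 replicate 2 was left out, and with the WT_eGFP minus WT difference subtracted 3 were higher and 7 lower. TNFAIP2 counted 3147 and 3522 in Rescue1, 4502 and 4306 in Rescue2, and 21729 and 19503 in KO2 (log2 change -2.43, adjusted p = 2e-12), while NFKBIA, the inhibitor IκBα, counted 3453 and 3375 in Rescue1, 2944 and 2775 in Rescue2, and 7063 and 6305 in KO2 (log2 change -1.09, adjusted p = 1.53e-08), a change that shrank under the minimum, to -0.79, with libraries scaled to the same total. NFKBIZ and TNFAIP3, an atypical IκB protein and the A20 enzyme, were also lower, at -1.33 and -1.08, and the change of TNFAIP3 fell under the minimum without KO2 replicate 1 (-0.91) or Rescue2 replicate 2 (-0.92) and under same-total scaling (-0.77).

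Several other innate immune genes were lower as well. Among the tested complement genes 50% were called, against 17.5% of all genes. Complement genes gave 0 higher and 7 lower of 14, or 4 called without KO2 replicate 1. C3, the central component, counted 1277 and 845 in Rescue1, 944 and 923 in Rescue2, and 44554 and 41316 in KO2 (log2 change -5.44 ± 0.11 (SE), adjusted p = 1.12e-13), and CD55, which protects cells from complement, counted 689.9 and 633 in Rescue1, 527 and 559 in Rescue2, and 5486 and 4538 in KO2 (log2 change -3.06 ± 0.09 (SE), adjusted p = 4.35e-12). C1S, the protease of the first component, counted 7.65 and 14.1 in Rescue1, 14.1 and 1.98 in Rescue2, and 336 and 234 in KO2 (log2 change -5.01, adjusted p = 6.09e-06). Of the interferon-stimulated genes 1 of 40 was called higher and 10 lower, 27.5% called against 17.5% of all genes. That balance did not hold with the WT_eGFP minus WT difference subtracted (5 higher, 4 lower). WT_eGFP against WT alone gave 2 higher and 7 lower, and with KO1 in place of KO2 the list had 24 calls. IFI27 counted 8.35 and 6.64 in Rescue1, 19.3 and 38 in Rescue2, and 535 and 321 in KO2 (log2 change -4.75, adjusted p = 4.94e-06), and PLSCR1 counted 317 and 161 in Rescue1, 265 and 211 in Rescue2, and 1175 and 1153 in KO2 (log2 change -2.33, adjusted p = 4.74e-06). OAS2, a sensor of double-stranded RNA, counted 85.8 and 140.1 in Rescue1, 136 and 167 in Rescue2, and 252 and 304 in KO2 and did not pass (adjusted p = 0.0678). MHC class I presentation gave 4 lower and 0 higher of 13 (30.8% called), as many as WT_eGFP against WT. After the subtraction it had 3 higher and 1 lower. B2M, the invariant light chain, counted 12255 and 11754 in Rescue1, 10698 and 10473 in Rescue2, and 38434 and 38115 in KO2 (log2 change -1.76, adjusted p = 1.15e-05), and HLA-C counted 12139.7 and 12243 in Rescue1, 11518 and 11391 in Rescue2, and 34839 and 29810.2 in KO2 (log2 change -1.45, adjusted p = 7.75e-09). Subtracted, B2M was at -1.38 (adjusted p = 0.00429) and HLA-C at -0.31 (adjusted p = 0.091). HLA genes share reads between loci, which makes their split uncertain.

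**Figure D2:**
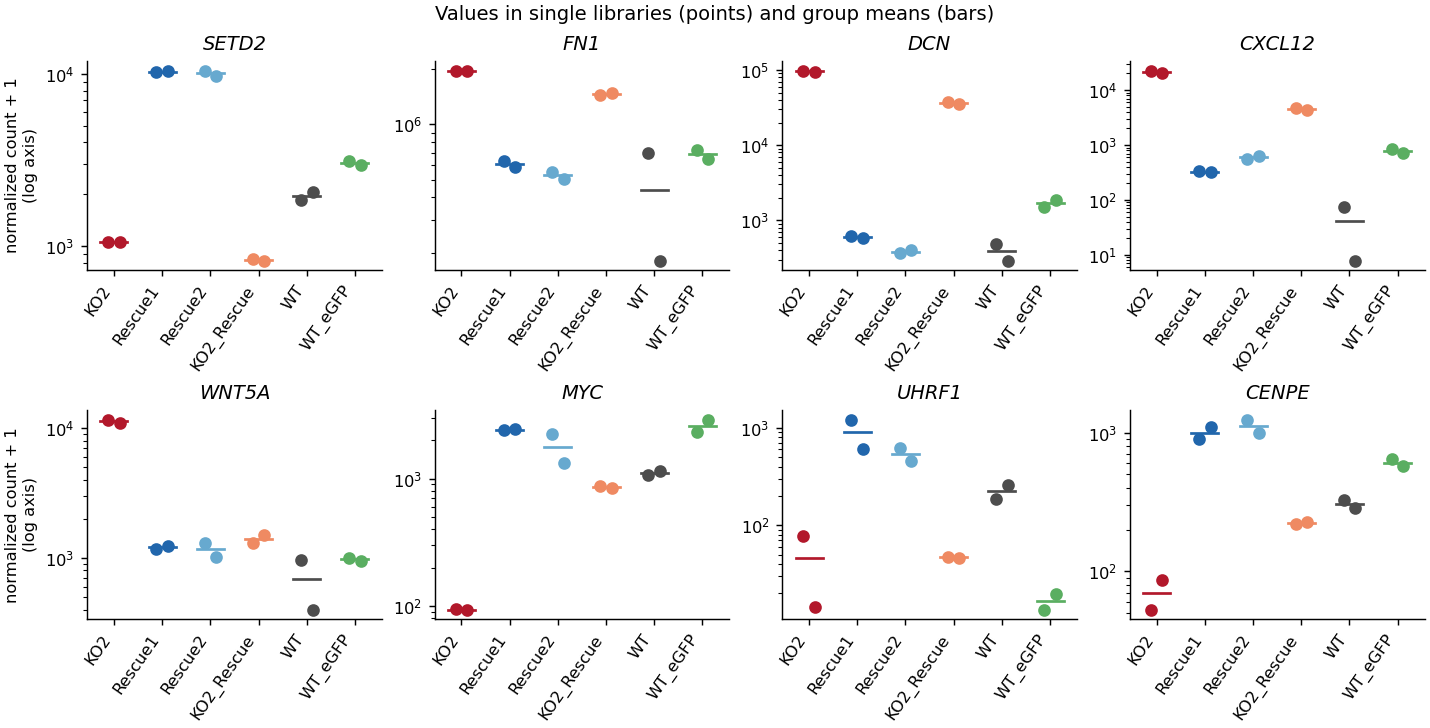
Normalized count + 1 (log axis) of 8 genes in 6 groups of 2 libraries; points are libraries and bars are group means. SETD2 is near 10205 in rescue and 1051 in KO2, FN1, DCN, CXCL12 and WNT5A are highest in KO2, and MYC, UHRF1 and CENPE are lower in KO2 than in both rescue clones.

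The extracellular matrix held the largest single shift in read numbers. FN1 (chr2:215360440-215436073) counted 633366 and 586822 in Rescue1, 548226 and 505666 in Rescue2, and 1958270 and 1958180 in KO2 (log2 change -1.79 ± 0.32 (SE), adjusted p = 0.000471), and WT was uneven at 697564 and 180968. Quantile normalization, which gives the highest gene of every library the same value, left FN1 with no change to report (0.00). DCN, the small proteoglycan decorin, counted 611 and 578 in Rescue1, 363 and 398 in Rescue2, and 98373 and 94978 in KO2 (log2 change -7.67 ± 0.15 (SE), adjusted p = 6.26e-14), a 203-fold fall to near the WT level of 477 and 289. FBN1, the microfibril protein fibrillin-1, counted 11264 and 11164 in Rescue1, 8225 and 8071 in Rescue2, and 64813 and 64800.2 in KO2 (log2 change -2.76 ± 0.22 (SE), adjusted p = 2.1e-07). Of 27 proteoglycans and matricellular proteins 2 were called higher, THBS1 and THBS2, and 9 lower, 40.7% called against 17.5% of all genes. CD44, the hyaluronan receptor, counted 12484 and 12602 in Rescue1, 12623 and 12564 in Rescue2, and 38565 and 32523 in KO2 (log2 change -1.49, adjusted p = 3.44e-10). Collagens gave 1 higher and 6 lower of 26, 26.9% called against 17.5% of all genes. When only the libraries compared were fitted, 12 were called. The largest collagen falls were COL4A4, at 13.2 and 6.58 in Rescue1, 0.881 and 3.23 in Rescue2, and 745 and 815 in KO2 (log2 change -7.17, adjusted p = 1.49e-10), and its neighbour COL4A3, at 0 to 0.607 against 106 and 114 (at least 32.4-fold lower, adjusted p = 4.09e-05). Both are chains of the glomerular and tubular basement membrane, were as high in WT as in KO2, and were low in WT_eGFP, where COL4A4 held 39.1 and 48.7 and COL4A3 2.59 and 0. COL1A1 counted 839 and 744 in Rescue1, 299 and 352 in Rescue2, and 3751 and 3520.5 in KO2 (log2 change -2.84, adjusted p = 0.00814). Its call was lost without KO2 replicate 1, where the change was -2.80. WT was uneven for COL1A1, at 11919 and 532, and WT_eGFP held 427 and 436. With the difference of that pair subtracted, the change of COL1A1 was -0.30 (limma, adjusted p = 0.878).

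Cell-matrix receptors and proteases moved in both directions. Integrins, laminins and nidogens gave 3 higher and 5 lower of 28, 28.6% called against 17.5% of all genes. Fewer were called when KO2 replicate 1 was left out. ITGA1, the α1 collagen receptor subunit, counted 168 and 213 in Rescue1, 126 and 143 in Rescue2, and 2350.4 and 1979 in KO2 (log2 change -3.75, adjusted p = 7.13e-09), whereas ITGA6, the α6 laminin receptor subunit, counted 1363 and 1354 in Rescue1, 1447 and 1159 in Rescue2, and 331 and 342 in KO2 (log2 change 1.97, adjusted p = 6.56e-08). LAMB2, a laminin chain, was lower at -1.71. Matrix proteases and their inhibitors gave 4 higher and 4 lower of 21 (38.1% called). PLAU, urokinase, counted 416 and 539 in Rescue1, 1886 and 565 in Rescue2, and 16.5 and 94.3 in KO2 (log2 change 4.10, adjusted p = 0.000217). MMP2, a gelatinase, counted 8227 and 7979.6 in Rescue1, 5268 and 5847 in Rescue2, and 11327 and 11856 in KO2 and did not pass (log2 change -0.79, adjusted p = 0.14). TIMP3, a metalloproteinase inhibitor, counted 9.33 and 17.3 in Rescue1, 0 and 0 in Rescue2, and 131 and 137 in KO2 (log2 change -5.18, adjusted p = 1.64e-05). Other calls were ADAMTS1, ADAMTS9 and TIMP1, lower at -1.63, -2.21 and -1.26, and PLAT, higher at 1.05. MMP11 had no count in KO2 and at most 37.9 in rescue (at least 4.37-fold higher), and its call was lost without either KO2 library (adjusted p = 0.154 and 0.151) and without replicate 1 of Rescue1 (0.105) or Rescue2 (0.132).

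Genes of the epithelial and mesenchymal states did not shift as one. The mesenchymal list gave 5 higher and 8 lower of 28, 46.4% called against 17.5% of all genes, with a median of -0.04. VIM, the intermediate filament vimentin, counted 103220.0 and 105902 in Rescue1, 103618 and 102667 in Rescue2, and 102935 and 102488 in KO2, overlapping ranges with a log2 change of 0.02 ± 0.06 (SE). THY1, a surface glycoprotein of mesenchymal cells, counted 12.1 and 5.45 in Rescue1, 12.5 and 12.1 in Rescue2, and 1136 and 1135 in KO2 (log2 change -6.68, adjusted p = 7.19e-10), while CDH11, a mesenchymal cadherin, counted 559.8 and 409 in Rescue1, 496 and 569 in Rescue2, and 78.9 and 81.2 in KO2 (log2 change 2.64, adjusted p = 0.00637). THY1 held 14.3 and 15 in WT but 1725 and 1895 in WT_eGFP, above KO2. Among 12 tested EMT transcription factors 2 rose and 3 fell (41.7% called). With the mean of KO1 and KO2 in place of KO2, 8 were called, 4 of them higher. PRRX1 was at 0 in the 4 rescue libraries, as in WT, against 34.8 and 28.4 in KO2 (at least 9.32-fold lower, adjusted p = 2.15e-05). POU2F2, which encodes OCT2, counted 421 and 409 in Rescue1, 417 and 337 in Rescue2, and 2066 and 1617 in KO2 (log2 change -2.21, adjusted p = 0.00165), and ZEB2 counted 1089.9 and 998 in Rescue1, 878 and 739.9 in Rescue2, and 2236 and 2280.1 in KO2 (log2 change -1.30, adjusted p = 2.24e-07), a change of -0.99 under same-total scaling, just short of the minimum. SNAI2, the repressor Slug, went up, at 175 and 164 in Rescue1, 107 and 118 in Rescue2, and 16.5 and 19.3 in KO2 (log2 change 2.88, adjusted p = 1.23e-05), as did FOXC2 at 2.05. SNAI2 also rose with the serum step in wild-type cells, from 26.8 and 23.5 to 398 and 406, and with that subtracted its change was -1.07. ZEB1 counted 998 and 1024 in Rescue1, 921 and 980.0 in Rescue2, and 728 and 719 in KO2, a difference of 0.44 that was under the minimum change, and TWIST1 was under the count minimum.

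On the epithelial side, 4 of 40 junction and identity genes were called higher and 8 lower, 30% called against 17.5% of all genes. WT_eGFP against WT gave 2 higher and 10 lower, and with that difference subtracted the balance turned to 11 higher and 5 lower. CDH1, E-cadherin, was at 0 to 0.778 counts in all 6 libraries, against 25.5 and 47.5 in WT, so no change could be given. MUC1 counted 4.31 and 8.55 in Rescue1, 10.2 and 19.2 in Rescue2, and 11.5 and 0 in KO2 (adjusted p = 0.135), far under WT at 493 and 595. CLDN4, a tight junction claudin, counted 28 and 33.1 in Rescue1, 9.91 and 33.1 in Rescue2, and 499 and 396 in KO2 (log2 change -4.18, adjusted p = 3.92e-08), and EHF, an epithelial ETS factor, counted 1.35 and 5.13 in Rescue1, 0 and 1.44 in Rescue2, and 115 and 131 in KO2 (log2 change -5.66, adjusted p = 1.45e-06). Both were thus lower in the rescue clones than in KO2 and than in WT. In WT, in 2% serum, CLDN4 held 1561 and 1556 and EHF 102 and 109.7. In WT_eGFP, at the 10% serum of the rescue clones, CLDN4 held 1214 and 1223, but EHF only 23.3 and 19.8. CLDN2 counted 174 and 177 in Rescue1, 61.5 and 49.3 in Rescue2, and 16.2 and 30.7 in KO2 (log2 change 2.09, adjusted p = 6.55e-06).

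Of 22 transport and brush border genes of the proximal tubule 12 were called lower and 0 higher, with a median log2 change of -1.70. That was 54.55% called, against 17.5% of all genes. CA12, a membrane carbonic anhydrase, counted 8.15 and 9.96 in Rescue1, 14.9 and 18.7 in Rescue2, and 814 and 569 in KO2 (log2 change -5.68, adjusted p = 7.37e-10). DPP4, a brush border peptidase, counted 0 and 17.3 in Rescue1, 43 and 22.4 in Rescue2, and 344 and 267 in KO2 (log2 change -4.70, adjusted p = 0.000524). GGT1, the γ-glutamyltransferase of the brush border, counted 225 and 285 in Rescue1, 350.0 and 444 in Rescue2, and 1091 and 945 in KO2 (log2 change -1.68, adjusted p = 8.25e-06). FOLR1, a folate receptor, counted 0 and 0 in Rescue1, 2.58 and 12.2 in Rescue2, and 40.7 and 61.5 in KO2 (log2 change -4.28, adjusted p = 6.08e-07), and SLC17A1, a phosphate and urate transporter, was at 0 to 1.17 in rescue against 24 and 16.8 in KO2 (at least 6.02-fold lower). For the last pair KO2 was already below WT, at 1486 and 1639 and 192 and 208. Of 22 nephron lineage transcription factors 2, LHX1 and SIX4, were called higher and 4 lower, 27.3% called against 17.5% of all genes. SALL1 counted 1659 and 1298 in Rescue1, 1646 and 1444 in Rescue2, and 4987 and 4467 in KO2 (log2 change -1.65, adjusted p = 2.77e-07) and EMX2 111 and 79.2 in Rescue1, 134 and 143 in Rescue2, and 397 and 421 in KO2 (log2 change -1.83, adjusted p = 9.23e-06).

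**Figure D3:**
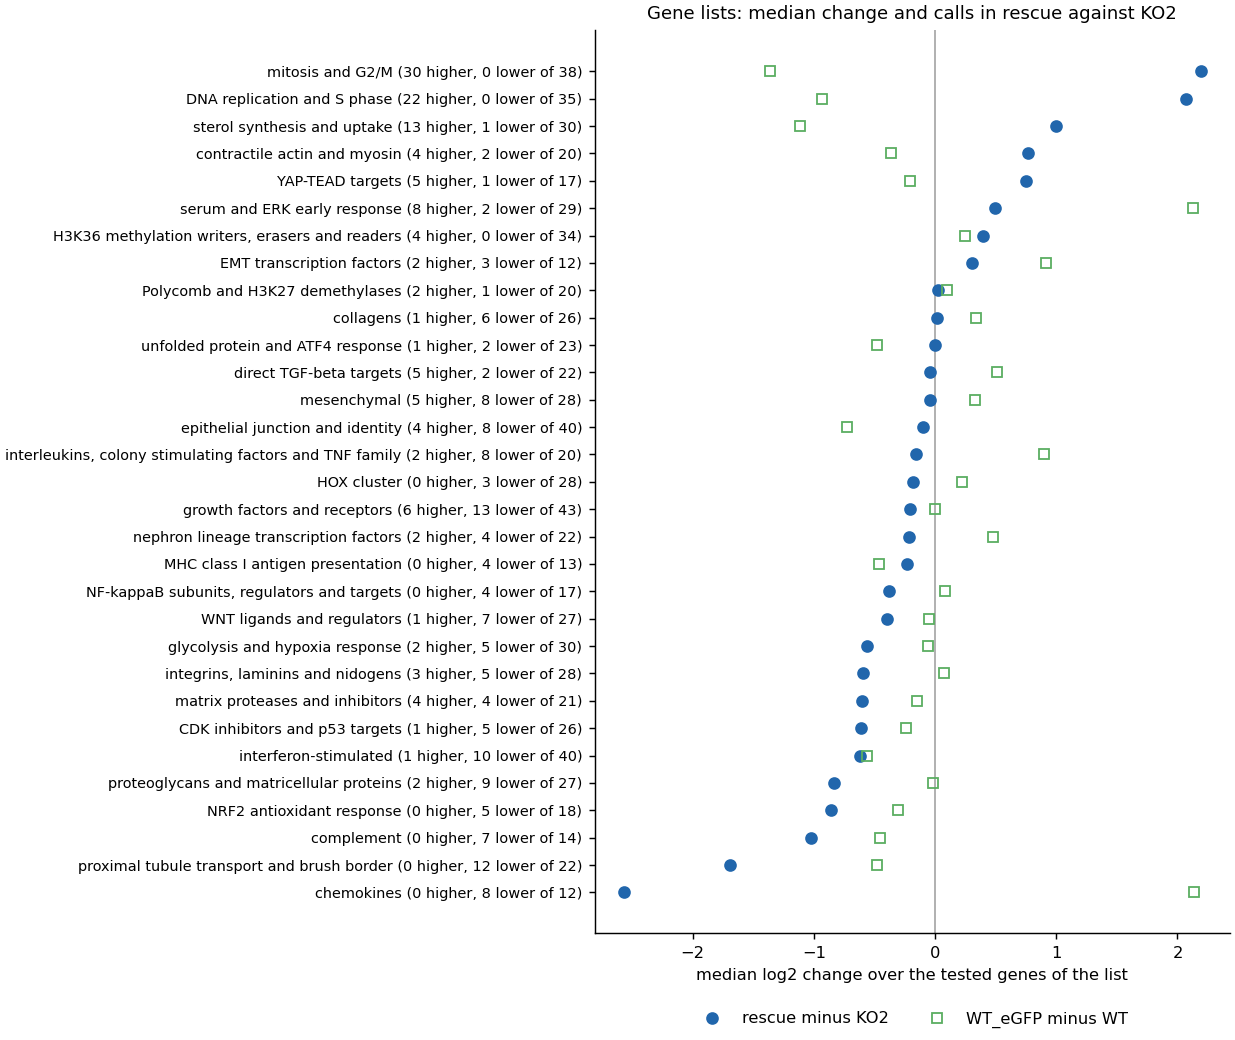
Median log2 change of each gene list in rescue minus KO2 (filled circles) and in WT_eGFP minus WT (open squares), with the number called higher and lower in rescue against KO2 of the number tested beside each name. The mitosis, S phase and sterol lists lie at 2.19, 2.07 and 0.99 for rescue but at -1.36, -0.93 and -1.11 for WT_eGFP, and chemokines at -2.57 against 2.14.

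Secreted growth regulators were mixed. WNT genes gave 1 higher and 7 lower of 27, 29.6% called against 17.5% of all genes. Fewer were called when either KO2 library was left out. WNT5A, the noncanonical ligand, counted 1171 and 1245 in Rescue1, 1309 and 1023 in Rescue2, and 11621 and 10990.1 in KO2 (log2 change -3.26 ± 0.24 (SE), adjusted p = 7.56e-08), against 969 and 398 in WT. WNT2 counted 615 and 681 in Rescue1, 42.2 and 55.8 in Rescue2, and 3191 and 2595 in KO2 (log2 change -4.01, adjusted p = 2.33e-07). LGR5, an R-spondin receptor of stem cells, counted 0 and 0 in Rescue1, 32.7 and 0 in Rescue2, and 45.9 and 48.6 in KO2 (log2 change -4.32, adjusted p = 0.00581), with 1 rescue library apart from the other 3. The higher member was DKK1, a WNT antagonist, at 0 in KO2 and 2.55 to 24.8 in rescue, whose call (adjusted p = 0.0165) was lost without either KO2 library (0.0861 and 0.0838) and without Rescue2 replicate 1 (0.0546). Of 43 growth factors and receptors 6 were higher and 13 lower, 44.2% called against 17.5% of all genes. PDGFRL and KDR, a PDGF receptor-like protein and the VEGF receptor 2, fell by 4.26 and 4.22 on the log2 scale. PDGFRA counted 22.8 and 22.7 in Rescue1, 16 and 22 in Rescue2, and 67.9 and 57.2 in KO2 (log2 change -1.55, adjusted p = 0.0393), a call lost when any 1 of the 6 libraries was left out (adjusted p = 0.0537 to 0.188).

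Immediate responses to serum and ERK gave 8 higher and 2 lower of 29, 34.5% called against 17.5% of all genes. MYC counted 2394 and 2469 in Rescue1, 2229 and 1336 in Rescue2, and 92.6 and 92.1 in KO2 (log2 change 4.46 ± 0.18 (SE), adjusted p = 1.51e-10), 21.9-fold higher, with WT between them at 1058 and 1149. ATF3 counted 541 and 713 in Rescue1, 607 and 678 in Rescue2, and 61.6 and 80.4 in KO2 (log2 change 3.15, adjusted p = 6.76e-05) and FOSB 41.6 and 107 in Rescue1, 139 and 175 in Rescue2, and 19.9 and 10.9 in KO2 (log2 change 2.71, adjusted p = 0.0015). With the serum step of wild-type cells subtracted, the changes of ATF3 and FOSB turned to -2.27 and -5.60, while that of MYC stayed at 3.22. YAP-TEAD targets gave 5 higher and 1 lower of 17, 35.3% called against 17.5% of all genes. Fewer were called when KO2 replicate 2 was left out. ANKRD1 counted 3759 and 3758 in Rescue1, 2324 and 2361 in Rescue2, and 124 and 147 in KO2 (log2 change 4.44 ± 0.18 (SE), adjusted p = 1.48e-10). Direct TGF-β targets gave 5 higher and 2 lower of 22 (31.8% called). ID1, an inhibitor of basic helix-loop-helix factors, counted 157 and 68.7 in Rescue1, 147 and 133 in Rescue2, and 3.07 and 5.94 in KO2 (log2 change 4.52, adjusted p = 3.13e-07). ID3 and INHBA, the activin A subunit, were higher at 3.65 and 2.59. With the serum step of wild-type cells subtracted, ID1 stayed at 3.04, but ID3 was at 0.46 and INHBA at 0.57. For the whole list WT_eGFP against WT gave 5 higher and 3 lower, and the subtraction left 3 higher and 3 lower.

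Of 30 sterol synthesis and uptake genes 13 were called higher and 1 lower, 46.7% called against 17.5% of all genes. DHCR7, the last enzyme of cholesterol synthesis, counted 2665 and 2399 in Rescue1, 3019.5 and 2223 in Rescue2, and 641 and 725 in KO2 (log2 change 1.91 ± 0.17 (SE), adjusted p = 6.22e-07). EBP, an isomerase of the pathway, was higher at 2.34. The lower member was ABCG1, a sterol exporter, at -1.84 (adjusted p = 0.0336), whose call was lost without either KO2 library (adjusted p = 0.0983 and 0.175), Rescue1 replicate 2 (0.0882) or Rescue2 replicate 1 (0.108). Of 18 genes of the NRF2 response 5 were called lower and 0 higher, 27.8% called against 17.5% of all genes. FTH1, the ferritin heavy chain, counted 47060.2 and 45509 in Rescue1, 48010.5 and 47275 in Rescue2, and 218402 and 207660.0 in KO2 (log2 change -2.18 ± 0.05 (SE), adjusted p = 1.63e-13), although it has processed copies that can share its reads. AKR1C1, AKR1C2 and AKR1C3 are aldo-keto reductases of near-identical sequence whose reads cannot be split with certainty. AKR1C1 and AKR1C3 were lower at -3.83 and -2.92, and AKR1C2, at the floor in rescue, was at least 13.1-fold lower. Glycolysis and hypoxia genes gave 2 higher and 5 lower of 30, 23.3% called against 17.5% of all genes. The list had 16 calls with KO1 in place of KO2, 13 with the mean of KO1 and KO2, each with 0 higher, and 11 with the WT_eGFP minus WT difference subtracted. TPI1, a glycolytic isomerase, counted 23.8 and 27.6 in Rescue1, 26.2 and 49.8 in Rescue2, and 351 and 277 in KO2 (log2 change -3.31, adjusted p = 1.26e-05), NDRG1 was lower at -1.81 and HK2, hexokinase 2, was higher at 1.52. In the unfolded protein and ATF4 response 13.0% were called, below the share of all genes: 1 of 23 was higher, the ATF3 described above, and 2 lower, SLC7A11, the cystine transporter, at -1.59 and VLDLR at -1.52. Contractile genes gave 4 higher and 2 lower of 20 (30% called), or 12 called under same-total scaling. TAGLN, transgelin, counted 43376 and 43760.3 in Rescue1, 33245 and 32899.5 in Rescue2, and 10076 and 10103 in KO2 (log2 change 1.91, adjusted p = 0.00147), FLNC, filamin C, counted 6576 and 6371 in Rescue1, 4915 and 4487 in Rescue2, and 1439 and 1445 in KO2 (log2 change 1.93, adjusted p = 4.7e-10), and TPM2, a tropomyosin, was lower at -2.49.

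Few chromatin regulators were called besides SETD2. Of 34 writers, erasers and readers of H3K36 methylation 4 were called higher and 0 lower, 11.8% against 17.5% of all genes, against 10 under same-total scaling and 7 without Rescue1 replicate 2. Besides SETD2 they were DNMT1, the maintenance DNA methyltransferase, at 2158 and 2227 in Rescue1, 2307 and 2368 in Rescue2, and 776 and 722 in KO2 (log2 change 1.59, adjusted p = 3.36e-07), NSD2, which dimethylates H3K36, at 1914 and 1596 in Rescue1, 2228 and 2049.6 in Rescue2, and 686 and 615 in KO2 (log2 change 1.57, adjusted p = 3.68e-07), and PHF19, a Polycomb-associated reader, at 1.04 (0.83 to 0.93, under the minimum, without KO2 replicate 2 or without replicate 1 of Rescue1 or Rescue2). Of 20 Polycomb genes and H3K27 demethylases 2 were higher and 1 lower (15% called), or 7 called with the mean of KO1 and KO2 in place of KO2. EZH2, the H3K27 methyltransferase, counted 758 and 798 in Rescue1, 851 and 814 in Rescue2, and 288 and 299 in KO2 (log2 change 1.45, adjusted p = 4.24e-08), and BMI1, a Polycomb RING partner, was higher at 1.70 (adjusted p = 0.0504 without KO2 replicate 2). HOX genes gave 0 higher and 3 lower of 28, HOXB13, HOXB7 and HOXD3, 10.7% called against 17.5% of all genes. Under same-total scaling 1 was called, and the count also moved without replicate 2 of Rescue1 or of Rescue2. With the WT_eGFP minus WT difference subtracted 1 HOX gene was higher and 9 were lower.

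**Figure D4:**
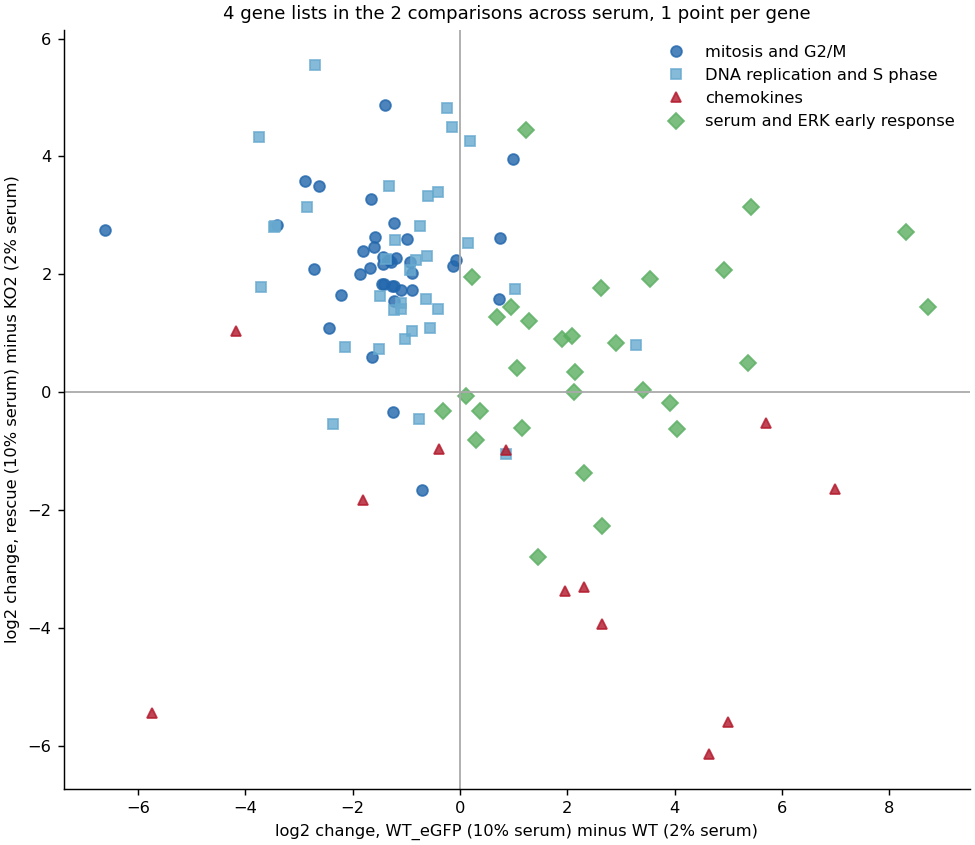
Log2 change of each tested gene of 4 lists in rescue minus KO2 (vertical) and in WT_eGFP minus WT (horizontal), both from 2% to 10% serum. Mitosis and S phase genes lie mostly in the upper left, chemokines mostly in the lower right, and early response genes mostly at the right, where 13 of 29 were called higher in WT_eGFP and none lower.

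WT_eGFP against WT gave 1856 calls (12.7%), and it used none of the 6 libraries. Some lists went the other way there than in rescue and others the same way. Complement, proximal tubule transport, interferon-stimulated and MHC class I genes had negative medians in both, at -0.46, -0.48, -0.56 and -0.46 in WT_eGFP minus WT. Of the mitosis genes 16 of 38 were called lower and 0 higher in WT_eGFP, and of the S phase genes 11 of 35 were lower and 0 higher. CDK1, for example, went from 1748 and 2153 in WT to 758 and 698 in WT_eGFP. Sterol genes gave 12 lower and 0 higher of 30. Chemokines gave 7 higher and 3 lower of 12, and CXCL8 rose from 33.9 and 36.2 to 4817 and 4353. C3 rose from 2747 and 3286 to 70209 and 71378. Subtracting this difference from the rescue change, as the test of whether the changes differ, gave 3002 calls (20.6%). Under it 30 mitosis genes were called higher and 0 lower, with a median of 3.50, and 22 S phase genes higher and 0 lower, with a median of 3.00. For chemokines 7 were lower and 1 higher, for sterol genes 22 higher and 0 lower, and for proximal tubule transport 9 lower and 2 higher. The early response list turned to 2 higher and 10 lower of 29. SETD2 itself was higher in WT_eGFP than in WT by 0.64 on the log2 scale, under the minimum change, and its subtracted change was 2.64 ± 0.09 (SE).

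The libraries labelled KO2_Rescue differed from KO2 in 608 genes (4.17%), at the same 2% serum and with no gain in SETD2. Their values are set beside those of the rescue clones without a test of likeness, since both are measured against the same KO2 libraries. WNT5A was at 1306 and 1503, MYC at 868 and 839, ANKRD1 at 2151 and 1961 and IL24 at 8.34 and 5.21. On the log2 scale these were closer to the rescue clones than to KO2. DCN was at 37572 and 35187, FN1 at 1445360 and 1474320 and FBN1 at 67827 and 65165, closer to KO2 on the same scale. Chemokines gave 8 lower and 0 higher of 12, the mitosis list 3 higher and 0 lower of 38, and the contractile list 9 higher and 1 lower of 20.

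The 2 rescue clones differed from each other in 145 genes (0.994%), 84 higher and 61 lower in Rescue1. That count rests on the spread shared across all 22 libraries, since the 4 libraries fitted alone gave 1 call. IRAK3, a brake on interleukin-1 signalling, counted 0 and 3.10 in Rescue1, 305 and 258 in Rescue2, and 1570.3 and 1847 in KO2, and was at least 68.1-fold higher in Rescue2 than in Rescue1, which was at the floor (adjusted p = 2.73e-05). MAGEA4, a cancer-testis antigen on chromosome X, was at 82.7 and 110.3 in Rescue1 and at 0 in Rescue2 and KO2, at least 36.6-fold higher in Rescue1. FAM163A counted 299.9 and 277 in Rescue1, 2.66 and 4.02 in Rescue2, and 13.7 and 5.81 in KO2 (log2 difference of Rescue1 minus Rescue2 6.08, adjusted p = 6.67e-05), so that Rescue2 lay at or below KO2. CD74, the MHC class II invariant chain, counted 0 and 0 in Rescue1, 61.8 and 35.2 in Rescue2, and 47.2 and 66 in KO2, so that Rescue2 overlapped KO2 and was at least 11.7-fold higher than Rescue1. WNT2, given above, was lower in Rescue2 than in Rescue1, a difference of 3.71 (adjusted p = 4.37e-05).

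**Figure D5:**
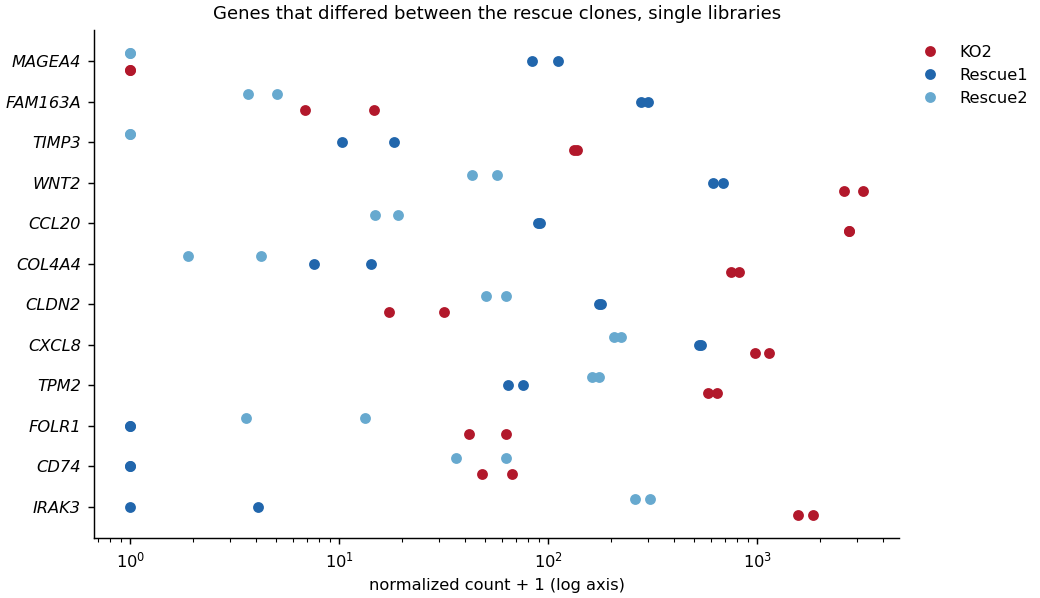
Normalized count + 1 (log axis) in single libraries of KO2, Rescue1 and Rescue2 for the named genes that differed between the rescue clones. IRAK3, CD74, FOLR1 and TPM2 are lower in Rescue1 and the others are lower in Rescue2; MAGEA4 is above 0 only in Rescue1.

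Markers of leukocytes and endothelium were at low levels, whereas the fibroblast list was high in KO2. Leukocyte markers summed to 32.2 to 119 counts in rescue and 188 to 213 in KO2, with CD3E, MS4A1 and ITGAM at 3 counts or fewer in every one of the 6 libraries, and 1 of 4 tested was called, CD68, lower at -5.43. Endothelial markers summed to 115 to 166 in rescue and 80.2 to 114 in KO2, with PECAM1, ERG and CLDN5 at 3 or fewer, and CDH5 was called higher and ESAM lower, a call that ESAM lost without either KO2 library, Rescue1 replicate 1 or Rescue2 replicate 2 (adjusted p = 0.0718 to 0.124). The fibroblast list moved with the matrix genes: 5 of 8 tested were called lower (DCN, THY1, LUM, COL1A1 and PDGFRA), 3 called without either KO2 library or without replicate 2 of either clone, and its sum was 830.1 to 1536 in rescue, 100073 to 103688 in KO2 and 846 to 12452 in WT. DCN made up most of that sum in KO2, while COL3A1 and FAP were at 3 or fewer in rescue and in KO2. The proximal tubule markers summed to 43326 to 48272 in rescue, 28202 to 29377 in KO2 and 41765 to 46696 in WT, most of it keratins 8 and 19, but LRP2, HNF4A, SLC22A6 and SLC22A8 were at 3 or fewer in all 3 groups, WT included. HAVCR1, ANPEP and GGT1 were called lower and CDH6 and KRT8 higher, and ANPEP lost its call without KO2 replicate 1 (adjusted p = 0.235) or Rescue2 replicate 2 (0.0606). The 13 mRNAs encoded by the mitochondrial genome, looked at after their values were seen, were lower in rescue for 12 of 13, with a median of -0.83 and 5 called lower. Their part in the other results was not tested.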

How the data were processed

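Poly(A) RNA from 22 libraries in 11 groups of 2 was sequenced with a stranded kit in paired reads. The authors quantified transcripts with Salmon 1.9.0 on GRCh38 (Ensembl) and deposited log2 values for 36859 genes, a variance-stabilized scale from DESeq2 1.26.0 between 11.32 and 21.28. That scale compresses low genes, so the deposited log2 values were converted back to normalized counts. A gene entered the test if 2 or more libraries held 10 or more normalized counts of it, and the 14585 such genes were fitted with limma 3.58.1 (R 4.3.3) on log2(normalized count + 1), with a trend, 1 mean per group over all 22 libraries and Benjamini-Hochberg adjustment. A call needed an adjusted p below 0.05 together with a log2 change beyond 1 in size. Rescue is the mean of Rescue1 and Rescue2. Totals of the 6 libraries compared were 11674500 to 14848100 normalized counts. Where all libraries of a group held no more than 3 reads each, a lower bound replaced the fold.

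Genes were named by rule: SETD2, the 12 largest rises and falls with at least 100 counts in the higher group, up to 4 called members of each of 31 lists, the genes the study names, and the 4 largest differences between the clones. Others are said to be chosen after their values were seen, and members named to complete a count are outside the rule. The comparison, the lists and the tests were chosen with earlier results of these data known. On simulated data 200 of 200 planted changes of 2 on the log2 scale were recovered for rescue against KO2, with 5 unchanged genes called among 14585. The simulation gave every gene the same dispersion, planted changes only in genes above a minimum mean count, and held no variation between clones or cultures. It therefore cannot say how reliable the calls are for genes with low or patchy counts. Promoter windows are from RefSeq, GRCh38.p14. Alternatives changed the pseudocount, filter, scaling, samples and comparator. A few genes are not reported here.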

Additional observations from a re-analysis of the deposited data

Results flagged for a closer look

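The genes below were picked out because the 2 rescue clones differed from each other in the same limma fit (adjusted p under 0.05, log2 difference over 1), although both were compared with the same KO2 libraries. The values are Rescue1 minus Rescue2 on the log2 scale. Higher in Rescue1 were MAGEA4 (6.59), FAM163A (6.08), TIMP3 (3.78), WNT2 (3.71), CCL20 (2.42), COL4A4 (1.88), CLDN2 (1.66) and CXCL8 (1.31). Higher in Rescue2 were IRAK3 (-7.12), CD74 (-5.58), FOLR1 (-2.78) and TPM2 (-1.27). For IRAK3, CD74, FOLR1, MAGEA4 and TIMP3 1 clone was at the floor of 3 reads, so the fitted difference depends on the pseudocount, and the bounds are at least 68.1-, 11.7-, 1.79-, 36.6- and 5.06-fold. MAGEA4 was detected in neither KO2 library and in neither library of Rescue2. Each clone is represented by 2 libraries, so a clone cannot be told apart from the culture it came from.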

How the results depend on the processing

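Over 14585 genes, rescue against KO2 stayed within 1.5 times of its 2551 calls under each other pseudocount, filter and scaling and when only the compared libraries were fitted, but 5033 genes passed with no minimum change and 3904 with KO1 in place of KO2. Tested on the deposited log2 values without conversion, a compressed scale by construction, the calls were 62 for rescue against KO2, 64 for Rescue1, 67 for Rescue2, 1 between the clones, 171 with the wild-type serum difference subtracted, 36 for WT_eGFP against WT, 35 for KO2_Rescue against KO2, 94 for KO2 against WT, 35 for rescue against WT_eGFP and 24 among list members (269 as reported). Fitted on their own libraries alone, the clones gave 1 call and WT_eGFP against WT gave 715. Leaving out 1 library at a time gave 1914 to 2435 calls for rescue against KO2, 1780 to 1987 for Rescue1, 1741 to 1868 for Rescue2, 98 to 146 between the clones, 2526 to 2956 with the serum difference subtracted, 1286 to 1729 for WT_eGFP against WT, 446 to 498 for KO2_Rescue against KO2, 1967 to 2286 for KO2 against WT, 1321 to 1877 for rescue against WT_eGFP and 234 to 265 list members. Replicate numbers did not pair the libraries (correlations of deviations from -0.163 to 0.107 over 55 pairs of groups), and a replicate block gave 2529 calls for rescue against KO2 and 2965 with the serum difference subtracted.

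Named genes changed direction under 3 changes of comparator. With the WT_eGFP minus WT difference subtracted, HES1 (-0.13), CLDN2 (-0.56), SNAI2 (-1.07), ATF3 (-2.27), FOSB (-5.60), CHRD (-4.01), ZEB1 (-0.76) and FAM163A (-0.61) turned negative and CXCL14 (0.30), HLA-F (1.42), AJUBA (0.083), TPM4 (0.58) and IL7 (2.67) turned positive. With the mean of 4 transduced wild-type lines in place of WT_eGFP the values were -0.67 for CLDN2, -1.15 for SNAI2, -1.90 for ATF3, -5.44 for FOSB, -3.68 for CHRD, -0.69 for ZEB1, -0.53 for FAM163A, 1.18 for HLA-F, 0.69 for AJUBA, 0.36 for TPM4 and 0.76 for IL7. With KO1 in place of KO2, DUSP4 (0.49), FOLR1 (1.39), SLC17A1 (0.28) and LGR5 (1.27) turned positive and HK2 (-0.31) negative. Among single libraries, MUC1 ranged from -0.27 without KO2 replicate 2 to 3.37 without KO2 replicate 1, and IL7 from -1.88 without Rescue1 replicate 2 to 0.14 without Rescue1 replicate 1. The cause was not tested. List counts also moved with KO1 in place of KO2, to 11 called for collagens, 17 for proteoglycans, 14 for integrins and laminins, 8 for NF-κB, 11 for nephron factors, 6 for the unfolded protein response and 14 for contractile genes. Of 165 named genes 153 kept direction and call under same-total scaling, and depth limits what can be said of genes at a few reads per library.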
